A study of Mus musculus with 12 samples.

Results

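The interaction of genotype and acetaminophen asks, for each gene, whether the drug moved expression by a different amount in livers labelled null for Txnrd1 than in wildtype livers. It is the log2 response (APAP minus saline) of liver-null livers minus that of wildtype livers, so a positive value means that the liver-null response was the higher one. All 12 arrays of the series enter it, 3 in each of 4 groups: wildtype with saline, wildtype with APAP, liver-null with saline and liver-null with APAP. The animals were adult male C57BL6/J mice of 8 weeks, given saline or 100 mg/kg of acetaminophen (APAP) into the peritoneum, and each array holds liver RNA collected 8 hours afterwards. The liver-null livers came from mice in which albCre, a Cre recombinase driven by the albumin promoter and so active in hepatocytes, disrupted a conditional-null txnrd1 allele. The labels do not say whether the wildtype mice carried the conditional allele or Cre. Nothing in the labels pairs a mouse of 1 group with a mouse of another, and with 3 mice per group the number of arrays limits the precision.

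Acetaminophen is partly oxidised by cytochrome P450 enzymes, above all Cyp2e1 and Cyp1a2, to a reactive quinone imine that glutathione and the glutathione S-transferases remove. Thioredoxin reductase 1, the product of Txnrd1, keeps cytosolic thioredoxin reduced with electrons from NADPH. Cells that lack it lean on glutathione and keep the transcription factor NRF2 (gene Nfe2l2) active, which raises conjugating enzymes, quinone reductases and NADPH supply. When the drug overwhelms these defences it damages hepatocyte proteins and mitochondria, and genes of the heat shock, endoplasmic reticulum stress and acute phase responses can follow.

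No gene passed the test of the interaction. Of 8469 genes tested with limma, 0 (0%) had a Benjamini-Hochberg adjusted p under 0.05, and the smallest adjusted p was 0.9994. An unadjusted p under 0.05 was found for 109 genes, which is 1.287% of those tested. The median interaction over all genes was 0.03, with 4810 genes positive and 3659 negative. The values were still far from uniformly small: 22 genes had an interaction above 1 on the log2 scale, which is a 2-fold difference between responses, and 34 lay below -1.

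The data bounded the interaction tightly for most genes and loosely for some. The median standard error was 0.240 and the median half-width of the 95% interval was 0.526, so an interaction of that size was at the edge of what a typical gene could show even before adjustment. For 6993 genes (82.57%) the whole interval lay within 1 log2 unit of 0. A larger difference in response between genotypes is outside the 95% interval of those genes, and for the other genes it was not resolved with 3 mice per group.

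The upper quartile of the arrays fell into a pair of sets that the labels do not name. Arrays 10 and 14 of the wildtype livers (saline and APAP) and arrays 16 and 17 of the liver-null livers (saline and APAP) had an upper quartile of 5.491 to 5.584. The remaining 8 arrays had one of 5.726 to 5.852. The sets are balanced over the groups, with 1 array of the lower set in each. With the set as a covariate the median residual standard deviation fell from 0.214 to 0.158, the median half-width was 0.396, and 7695 genes (90.86%) had their interval within 1 log2 unit of 0. Again 0 of 8469 genes (0%) passed, with 326 (3.849%) at an unadjusted p under 0.05 and a smallest adjusted p of 0.959. Within the 8 arrays of the higher upper quartile alone, 0 genes passed and 345 had an unadjusted p under 0.05. The remaining 4 arrays hold 1 mouse per group and give a value with no test, and the sign of the interaction was the same in both sets for 53.06% of genes.

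Neither response entered by the interaction passed for any gene. The wildtype response called 0 genes (0%) and the liver-null response called 0 (0%), with 143 and 59 genes at an unadjusted p under 0.05. The response averaged over both genotypes also called 0 (0%), with 102 genes at an unadjusted p under 0.05. The 2 responses share no array, and across the 8469 genes, which are not independent replicates, they correlated with Pearson r = -0.121 and Spearman rho = -0.0424. Leaving out liver-null APAP 17 made Jun, a subunit of the AP-1 transcription factor, the 1 gene called in the averaged response (1.77, limma adjusted p = 0.01663). Jun measured 4.17 to 4.80 with saline and 5.55 to 6.42 with APAP in wildtype livers, and 3.48 to 4.11 with saline in liver-null livers. With APAP in liver-null livers it measured 5.74, 6.02 and 3.29, so the last array stood with the saline livers. Its interaction was -0.29 ± 0.80 (SE), and 0.58 without liver-null APAP 17.

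**Figure D1:**
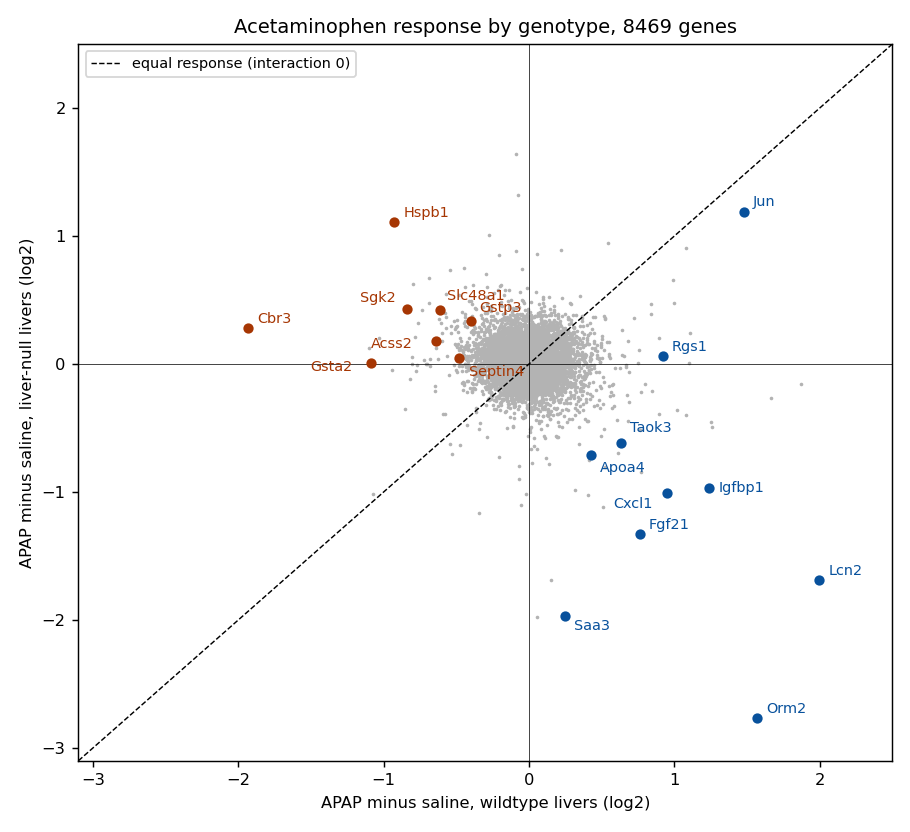
Log2 response to acetaminophen in wildtype livers (horizontal) and in liver-null livers (vertical), each the difference of 2 means of 3 arrays, for 8469 genes in grey and named genes in colour. Genes on the dashed line responded equally, red genes lie above it (positive interaction), blue genes below it, and no gene passed the adjusted test of the distance from the line.

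The response of Txnrd1 itself had an interaction near 0. Its probe set measured 9.43, 9.58 and 9.81 with saline and 9.76, 9.59 and 9.70 with APAP in wildtype livers. In the livers labelled liver-null it measured 10.26, 10.47 and 10.32 with saline and 10.37, 10.38 and 10.58 with APAP. The interaction was 0.02 (95% interval -0.37 to 0.40). Every liver-null array was above every wildtype array, which is the opposite of a lost transcript. Its position relative to the exons removed by Cre was not analysed here, so this probe set is no test of the labels, and genotypes are named throughout as labelled. The other Txnrd1 probe sets averaged 1.45 and 1.89 over the 12 arrays, below the array medians of 2.913 to 2.991.

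The main enzymes that oxidise acetaminophen had interactions near 0, with a narrow interval for Cyp2e1 only. Cyp2e1, the main enzyme of acetaminophen oxidation, measured 13.02 to 13.21 on all 12 arrays, and its interaction was -0.01 (95% interval -0.31 to 0.28). Cyp1a2 had an interaction of 0.14 (95% interval -0.36 to 0.64), and -0.04 without wildtype APAP 12 and liver-null saline 4. Of 19 tested genes of acetaminophen oxidation, glucuronidation, sulfation, conjugation and export, 0 passed. They ran from -0.36 for Papss1, which makes the sulfate donor, to 0.35 for Abcc3, a basolateral exporter of conjugates that had 0.02 without wildtype APAP 12. Their median was 0.10. Without wildtype APAP 12 and liver-null saline 4 it was -0.03, beside 0.09 over all genes.

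The genotype difference averaged over both treatments, which called 378 genes (4.46%), was set beside the interaction of the same genes. Of those 378 genes, 193 were higher and 185 lower in liver-null livers. For 367 of them the 95% interval of the interaction held 0, and for 271 it lay within 1 log2 unit of 0. The genotype difference was larger in size after APAP than after saline for 181 of the 378. Their interaction was positive for 128 of the 193 higher genes (median 0.08) and negative for 53 of the 185 lower genes (median 0.12). An interaction p under 0.05 before adjustment was found for 11 of the 378 (2.91%), against 1.287% of all genes. The call and the interaction test use the same residual variance of each gene, so the called genes were partly chosen for low variance. The percentages therefore cannot show whether genes with a genotype difference had more interaction.

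As a description of genes whose responses did not overlap, each of the 9 APAP minus saline differences in 1 genotype was set against each of the 9 in the other. In 28 genes (0.331%) every liver-null difference was above every wildtype difference, and in 15 genes (0.177%) every one was below. In 11 genes (0.13%) all 9 differences of 1 genotype were positive and all 9 of the other negative. None of these genes passed the adjusted test, and each gene named below had an adjusted interaction p of 0.9994 in the limma fit without the covariate.

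Among the 28 genes with the higher liver-null response, Sgk2 had the smallest unadjusted p. Sgk2 encodes a serum- and glucocorticoid-regulated kinase of liver and kidney. It measured 7.78, 7.44 and 7.20 with saline and 6.12, 6.89 and 6.90 with APAP in wildtype livers. In liver-null livers it measured 6.49, 7.13 and 6.66 with saline and 7.5, 7.03 and 7.04 with APAP. The wildtype arrays did not overlap between treatments and the liver-null arrays did, with liver-null saline 5 above 2 of the APAP livers. The interaction was 1.27 ± 0.35 (SE; 95% interval 0.50 to 2.04; unadjusted p = 0.003874, adjusted p = 0.9994 by limma), and it stayed between 1.01 and 1.45 when each array was left out.

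Gstp3, a pi class glutathione S-transferase, had opposite differences in every pair. Its wildtype values were 5.89, 5.38 and 5.34 with saline and 5.07, 5.18 and 5.16 with APAP. Its liver-null values were 5.49, 5.52 and 5.50 with saline and 5.91, 6.02 and 5.60 with APAP. With saline the genotypes averaged within 0.03 of each other, and with APAP every liver-null array was above every wildtype array. The interaction was 0.74 ± 0.22 (SE; unadjusted p = 0.006478, adjusted p = 0.9994 by limma), and 0.56 without wildtype saline 8.

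Acox2 and Septin4 showed a lower level after APAP in wildtype livers and little difference in liver-null livers. Acox2, a peroxisomal oxidase that shortens bile acid side chains, measured 9.80, 9.49 and 9.63 with saline and 9.12, 9.36 and 9.28 with APAP in wildtype livers. The liver-null values were 10.02, 9.86 and 9.86 with saline and 10.10, 10.06 and 9.95 with APAP, for an interaction of 0.51 ± 0.16. Septin4, a cytoskeletal GTPase of stellate cells in liver, had a wildtype response of -0.48 and a liver-null response of 0.05. Its interaction was 0.53 ± 0.16, but another Septin4 probe set of lower signal gave 0.06.

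The other 8 genes shown with a higher liver-null response had interactions between 0.38 and 0.70. They were Gtf2i (0.70), a general transcription factor, Prodh (0.64), the first enzyme of proline breakdown, Tmppe (0.47), Aspscr1 (0.46), a tether of glucose transporter vesicles, Cluh (0.45), which binds messengers of mitochondrial proteins, Csnk1g2 (0.42), a casein kinase, Mapre3 (0.39), which binds microtubule ends, and Naalad2 (0.38), a peptidase. Their wildtype responses were all below 0, from -0.22 in Aspscr1 to -0.49 in Prodh, and their liver-null responses were all above 0, from 0.05 in Naalad2 to 0.42 in Gtf2i. Prodh had 1 wildtype APAP array far below the others, at 8.24 against 9.14 and 8.72, and its interaction was 0.42 without that array. The other 3 probe sets of Gtf2i gave 0.0015, 0.11 and 0.53, and the other one of Naalad2 gave 0.05. Mapre3 and Naalad2 lay near the array medians, and with values floored there their interactions were 0.10 and 0.05. Without wildtype APAP 12 and liver-null saline 4, Gtf2i had 0.41.

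**Figure D2:**
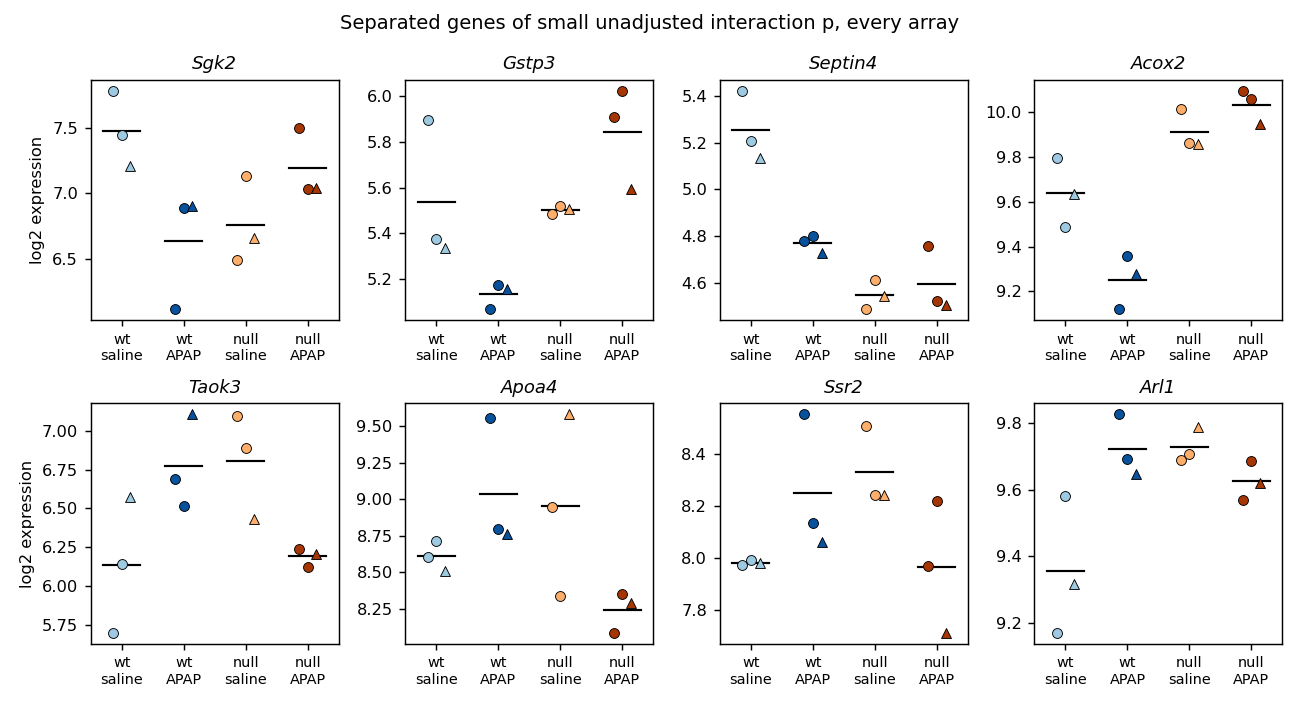
Log2 expression on each array for 4 genes with a higher liver-null response (Sgk2, Gstp3, Septin4, Acox2) and 4 with a lower one (Taok3, Apoa4, Ssr2, Arl1); circles are arrays of the higher upper quartile, triangles arrays of the lower one, and bars group means of 3. The step from saline to APAP differs between genotypes in each panel, and none passed the adjusted test.

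Among the 15 genes with the lower liver-null response, Taok3 had the smallest unadjusted p of all 8469 genes. Taok3 encodes a kinase upstream of the p38 and JNK pathways. It measured 5.70, 6.14 and 6.58 with saline and 6.69, 6.52 and 7.11 with APAP in wildtype livers. In liver-null livers it measured 7.10, 6.89 and 6.43 with saline and 6.24, 6.12 and 6.21 with APAP, where the treatments did not overlap. The interaction was -1.25 ± 0.33 (SE; 95% interval -1.97 to -0.53; unadjusted p = 0.002796, adjusted p = 0.9994 by limma). It lay between -1.47 and -1.03 when each array was left out, and 2 other Taok3 probe sets gave -0.45 and -0.74.

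Apoa4, an apolipoprotein of fat export whose liver level follows triglyceride load, had wildtype values of 8.61, 8.72 and 8.51 with saline and 9.55, 8.79 and 8.76 with APAP. Its liver-null values were 8.95, 8.34 and 9.58 with saline and 8.09, 8.35 and 8.29 with APAP. The interaction was -1.14 ± 0.40 (SE; unadjusted p = 0.01494, adjusted p = 0.9994 by limma), and a second probe set gave -1.11. Wildtype APAP 12 and liver-null saline 16 were the highest arrays of their groups, and without the latter the interaction was -0.83. With limma's array weights, which ran from 0.36 for wildtype saline 10 to 4.63 for wildtype saline 9, it was -0.56.

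Ssr2 and Arl1 serve the secretory pathway, Ssr2 as a subunit of the translocon-associated complex of the endoplasmic reticulum and Arl1 as a GTPase of the Golgi. Ssr2 measured 7.97, 7.99 and 7.98 with saline and 8.55, 8.14 and 8.06 with APAP in wildtype livers. The liver-null values were 8.51, 8.24 and 8.24 with saline and 7.97, 8.22 and 7.71 with APAP, so all 9 differences were positive in wildtype and all 9 negative in liver-null livers. Its interaction was -0.63 ± 0.23, and that of Arl1 was -0.47 ± 0.17. Ssr2 had -0.39 without wildtype APAP 12 and liver-null saline 4, and Arl1 had -0.28 with array weights.

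The other 8 of the 12 genes shown with the lower liver-null response had interactions between -0.86 and -0.33. Rgs1, a regulator of chemokine receptor signalling in leukocytes, measured 2.62, 2.72 and 2.61 with saline and 3.17, 3.45 and 4.09 with APAP in wildtype livers, and 2.58 to 2.99 in all 6 liver-null livers. Its interaction was -0.86 ± 0.29, and -0.54 within the 8 arrays of the higher upper quartile. Cxcl12, a chemokine of stromal and endothelial cells, had all differences positive in wildtype and all negative in liver-null livers, with an interaction of -0.34 ± 0.16 and -0.19 in a second probe set. Arhgap9 (-0.53), a leukocyte GTPase activator, Tnfrsf11b (-0.55), a decoy receptor for the cytokine RANKL, Zfp959 (-0.49), Ift80 (-0.41), Golph3l (-0.35) and Add2 (-0.33) completed the 12. Of these 8 genes only Cxcl12 had a mean level well above the array medians, and the other probe sets of Arhgap9, Add2, Golph3l, Ift80 and Tnfrsf11b gave -0.18 to 0.14. With values floored at the array median, Tnfrsf11b had -0.09, Ift80 -0.07 and Add2 -0.002.

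The largest interactions by size were mostly negative and mostly not separated between genotypes. Orm2, an acute phase orosomucoid, had the largest, at -4.34 ± 1.42 (SE; 95% interval -7.44 to -1.23; unadjusted p = 0.01042, adjusted p = 0.9994 by limma). It measured 3.81, 6.15 and 5.05 with saline and 9.13, 4.11 and 6.48 with APAP in wildtype livers, and 10.08, 9.10 and 8.30 with saline and 6.32, 6.69 and 6.16 with APAP in liver-null livers. The liver-null livers did not overlap between treatments, while the wildtype APAP livers ran from within the wildtype saline range to far above it. The interaction was -2.55 with array weights.

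Igfbp1, a binding protein for insulin-like growth factors that hepatocytes make under stress and fasting, had an interaction of -2.21 ± 0.89. It measured 6.91, 7.06 and 4.98 with saline and 7.64, 7.75 and 7.29 with APAP in wildtype livers. In liver-null livers it measured 9.32, 7.52 and 8.03 with saline and 7.45, 8.30 and 6.21 with APAP. The wildtype treatments did not overlap and the liver-null treatments did, and the interaction was -1.54 without wildtype saline 10. It was -1.25 within the 8 arrays of the higher upper quartile and -0.72 with array weights.

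The NRF2 targets mostly had negative responses in wildtype livers and responses near 0 in liver-null livers, where with saline their median level was 0.92 above wildtype. Of 33 tested targets 0 passed, 29 had a positive interaction and 4 a negative one. Their median interaction was 0.25, against 0.03 over all genes, made of a median wildtype response of -0.26 and a median liver-null response of 0.05. The median interaction stayed between 0.19 and 0.41 when each array was left out. The median wildtype response was -0.13 without wildtype APAP 12 and -0.35 without wildtype saline 8. As a mean deviation from each gene's 12-array mean, the targets measured -0.76, -0.37 and -0.24 in wildtype saline livers. They measured -1.08, -0.79 and -0.54 in wildtype APAP livers, so the wildtype treatments overlapped.

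Gsta2, an alpha class glutathione S-transferase that clears lipid peroxides, measured 9.86, 9.62 and 10.38 with saline and 7.69, 9.27 and 9.65 with APAP in wildtype livers. In liver-null livers it lay between 11.83 and 12.13 on all 6 arrays. Its wildtype response was -1.09 and its liver-null response 0.00, for an interaction of 1.09 ± 0.56 (SE; 95% interval -0.13 to 2.31). Wildtype APAP 12 was the lowest array, and without it the interaction was 0.50.

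Mgst3, a microsomal transferase and peroxidase, repeated this arrangement, with wildtype values of 6.27, 6.84 and 6.76 with saline and 4.99, 5.97 and 6.09 with APAP. The wildtype treatments did not overlap. The liver-null values were 8.79, 8.75 and 8.30 with saline and 8.80, 8.95 and 7.95 with APAP, for an interaction of 0.90 ± 0.45, and 0.55 without wildtype APAP 12. Slc48a1, a heme transporter, was the 1 target with an unadjusted p under 0.05 (0.04259). Its wildtype response was -0.61 and its liver-null response 0.42, with an interaction of 1.03 ± 0.45. It was 0.50 in a second probe set and 0.63 with array weights.

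The quinone and carbonyl reductases had large values and wide intervals. Cbr3, a carbonyl reductase, measured 2.37, 5.71 and 7.62 with saline and 2.40, 2.23 and 5.27 with APAP in wildtype livers, against 9.84 to 10.53 in all liver-null livers. The wildtype values of 2.37, 2.40 and 2.23 lay below the array medians of 2.913 to 2.991. The spread among wildtype saline livers was larger than the wildtype response, and the interaction of 2.21 had a 95% interval of -1.16 to 5.58. It was 1.02 without wildtype saline 10 and 3.64 without wildtype saline 8. Nqo1, the NRF2-driven quinone reductase, had an interaction of 0.86 ± 0.56 and Cbr1 one of 0.65 ± 0.43. Without wildtype saline 10 Nqo1 had 0.51, and without wildtype APAP 12 Cbr1 had 0.37.

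The glutathione S-transferases as a family had a positive interaction in 17 of 20 tested genes, with 0 passing and a median of 0.23 that ran from 0.11 to 0.32 when each array was left out. Without wildtype APAP 12 and liver-null saline 4 the median was 0.15 and 13 of 20 were positive, beside 0.09 and 5583 of 8469 over all genes. Gsta4 (0.76), Gstm4 (0.71), Gstm3 (0.70) and Gstm6 (0.52) followed Gsta2 and Mgst3, while the abundant Gstp1 and Gsta3 had 0.07 and 0.15. Without wildtype APAP 12, Gsta4, Gstm4, Gstm3 and Gstm6 had 0.33, 0.37, 0.45 and 0.27. Probe sets of related mu class genes can bind each other's transcripts. Gclc, the catalytic subunit of glutamate-cysteine ligase, which makes the first step of glutathione synthesis, had an interaction of 0.61 ± 0.40 and 0.73 in a second probe set. It was 0.28 without wildtype APAP 12, and 0.08 without liver-null saline 4 as well. Its regulatory subunit Gclm had 0.01 ± 0.21.

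Other targets had small values or values that moved with single arrays. Srxn1, which repairs peroxiredoxins, had an interaction of 0.31 ± 0.29, with 0.08 without liver-null saline 16, and Gsr, which reduces glutathione, 0.21 ± 0.16. Other Srxn1 probe sets of lower signal gave -0.22, 0.15 and 0.002. Hmox1, the stress-induced heme oxygenase, was the most negative at -0.82 ± 1.54, and its liver-null values scattered from 8.65 to 4.28 with saline and from 8.14 to 4.14 with APAP. It was 0.11 without liver-null saline 4 and -2.08 without liver-null APAP 2. Nfe2l2, the gene of NRF2 itself, had -0.14 ± 0.23, and -0.03 to -0.31 when each array was left out.

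**Figure D3:**
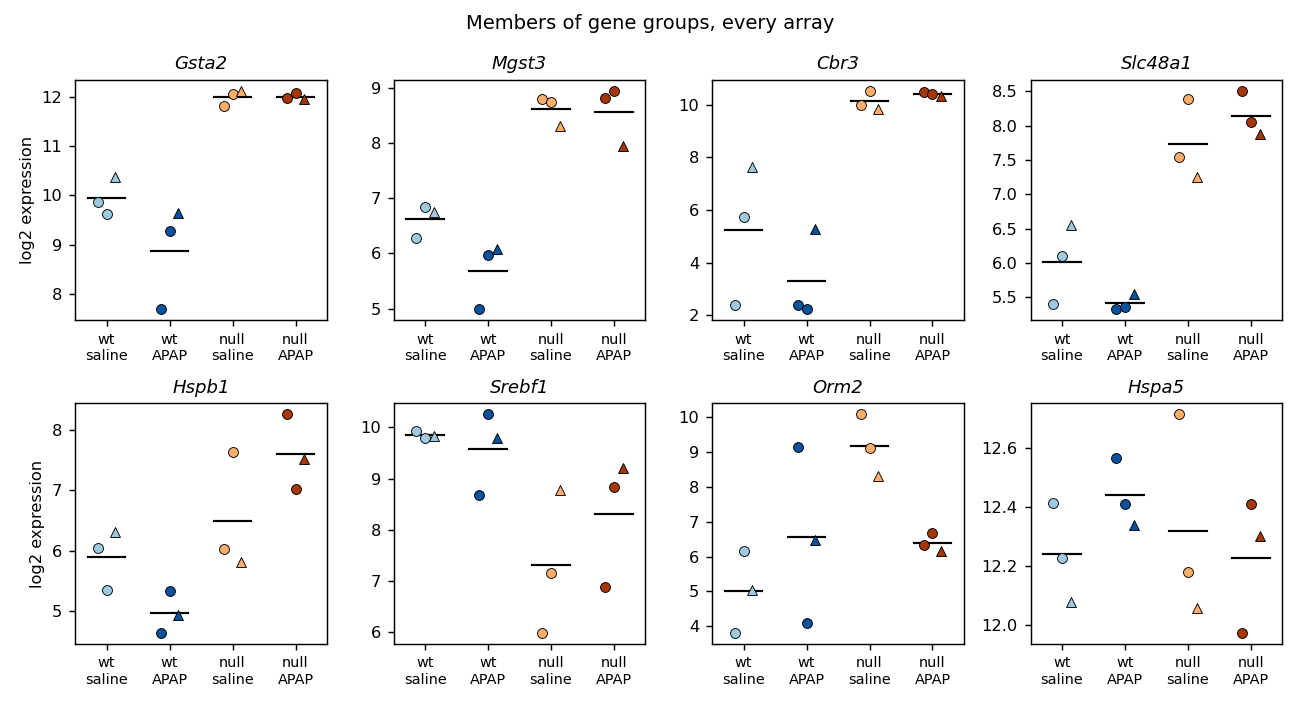
Log2 expression on each array for NRF2 targets (Gsta2, Mgst3, Cbr3, Slc48a1), the small heat shock gene Hspb1, the lipogenic regulator Srebf1, the acute phase gene Orm2 and the endoplasmic reticulum chaperone Hspa5; circles are arrays of the higher upper quartile, triangles arrays of the lower one, and bars group means of 3. Gsta2 and Cbr3 are level over the 6 liver-null arrays, while Orm2 is high on all liver-null saline arrays and on wildtype APAP 12.

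The heat shock genes held the largest positive interaction with an interval that excluded 0. Hspb1, a small chaperone that stabilises actin and unfolded proteins, measured 6.05, 5.35 and 6.31 with saline and 4.64, 5.33 and 4.95 with APAP in wildtype livers. In liver-null livers it measured 6.03, 7.63 and 5.82 with saline and 8.26, 7.03 and 7.52 with APAP. Every wildtype APAP array was below every wildtype saline array, while liver-null saline 5 stood within the liver-null APAP range. The interaction was 2.04 ± 0.65 (SE; 95% interval 0.62 to 3.45; unadjusted p = 0.008781, adjusted p = 0.9994 by limma), a 4.10-fold difference between the responses. A second probe set gave 2.14, and with each array left out it lay between 1.70 and 2.61. With array weights it was 0.56, far below the value with equal weights; liver-null saline 5, the highest saline array, had a weight of 3.68.

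Of 21 tested heat shock genes 16 had a positive interaction and 0 passed, with a median of 0.24 that stayed between 0.15 and 0.34 when each array was left out. The median was 0.13 within the 8 arrays of the higher upper quartile, beside 0.04 over all genes. It was 0.61 within the other 4 arrays, which hold 1 mouse per group, beside 0.02 over all genes. The largest values after Hspb1 were in cytosolic chaperones and co-chaperones, among them Hsph1 (0.89), a nucleotide exchange factor of the HSP70 chaperones, Fkbp4 (0.76) and Stip1 (0.68), co-chaperones of HSP90, and Hsp90aa1 (0.60), the inducible HSP90. Stip1 had an unadjusted p of 0.04675. The mitochondrial chaperonin pair Hspd1 (0.19) and Hspe1 (0.24) had smaller values, and the inducible HSP70 gene Hspa1b was negative at -0.36 ± 0.77, and 0.14 without liver-null APAP 3. Hsph1 had 0.56 without wildtype saline 8.

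Heat shock factor 1 binds inverted repeats of a short core, and the promoter of Hspb1 is shown for the copies it holds. The 250 bases before its RefSeq start (GRCm38.p6, chr5:135887669-135887918, plus strand) hold 2 copies of the heat shock element core GAANNTTC, in capitals, the nearer one ending 89 bases before the start.

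Hspb1: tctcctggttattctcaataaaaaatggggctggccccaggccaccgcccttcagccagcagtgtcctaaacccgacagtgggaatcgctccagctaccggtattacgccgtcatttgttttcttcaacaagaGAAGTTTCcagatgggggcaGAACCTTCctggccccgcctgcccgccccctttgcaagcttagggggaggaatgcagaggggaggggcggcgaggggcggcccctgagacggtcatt

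The core was searched on both strands of the same 250 bases for every gene. It was found in 6.69% of all 32851 windows, and in 6 of the 17 tested heat shock genes that had a window. The median interaction was 0.32 in those 6 and 0.29 in the other 11, so the medians with and without these letters were close. A match is a description of letters and not a bound site.

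The genes of fatty acid synthesis were positive in 25 of 26 tested, 0 passed, and the median was 0.37. The median response was -0.22 in wildtype and 0.16 in liver-null livers. The wildtype median was -0.07 without wildtype APAP 12 and -0.37 without wildtype APAP 13. By the mean level of the group on each array, the treatments overlapped in both genotypes. With saline the median difference of liver-null from wildtype livers was -0.76, and the median of the group's interaction stayed between 0.28 and 0.49 when each array was left out.

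Acss2, which makes cytosolic acetyl-CoA from acetate, was the 1 member with an unadjusted p under 0.05 (0.01895). It measured 9.0, 9.05 and 8.57 with saline and 7.94, 8.78 and 7.97 with APAP in wildtype livers, and 8.17 to 8.57 on all liver-null arrays. Its interaction was 0.82 ± 0.30, and 1.10 without wildtype APAP 13, the highest of the wildtype APAP livers.

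Srebf1, the transcription factor that drives lipogenic genes, had the largest value, 1.28 ± 1.00, with liver-null saline values of 5.98, 7.14 and 8.78 that overlapped the liver-null APAP range of 6.89 to 9.21. Leaving out the first of these saline livers gave 0.62, and leaving out the last gave 2.02. With both the first and wildtype APAP 12 left out it was 0.17. Scd1, the stearoyl-CoA desaturase, had 0.79 ± 0.56 and Fasn, fatty acid synthase, 0.23 ± 1.00. Fasn was set by single mice: its interaction was 1.08 without liver-null APAP 2 and -0.43 without liver-null APAP 17. Scd1 had 0.34 without liver-null saline 5. Angptl8, a feeding-induced inhibitor of lipoprotein lipase, had an interaction of 1.39 ± 0.82, with liver-null values of 5.15, 5.19 and 5.84 with saline and 5.41, 6.81 and 7.90 with APAP, and 0.79 without the last of these.

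Lipid droplet genes had no shared direction, with 10 of 20 positive, 0 passing and a median of 0.01. Plin4, a droplet coat protein, had 1.36 ± 1.05, Fitm1, a droplet-forming membrane protein, 0.51 ± 0.85, and Cidec, a droplet fusion protein, 0.19 ± 0.69. Single arrays moved all of these: Plin4 had 0.50 without liver-null saline 16, Fitm1 -0.07 without wildtype saline 9 and 1.45 without wildtype saline 8, and Cidec -0.43 without liver-null saline 16 and 0.79 without liver-null saline 4. Cd36, a fatty acid receptor, had 0.06 ± 0.31, and -0.13 to 0.35 when each array was left out. Fatty acid oxidation and its PPAR-alpha targets had 13 of 34 positive with 0 passing and a median of -0.07, with Fgf21 (-2.09), a fasting hormone, lowest. The Fgf21 value was -0.69 without liver-null saline 4. Vnn1, a pantetheinase, was the 1 gene of that group with an unadjusted p under 0.05 (0.04145), with an interaction of -0.92 ± 0.40, and -0.60 without wildtype saline 8.

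The unfolded protein response, which refits the endoplasmic reticulum when proteins misfold there, was negative in nearly all members. Of 23 tested genes 22 had a negative interaction, 0 passed, and the median was -0.26. The wildtype response had a median of 0.14 and the liver-null response one of -0.09. The mean level of the group, as a deviation of each gene from its 12-array mean, was 0.54 on liver-null saline 4 and 0.27 on wildtype APAP 12, the highest values of the 12 arrays. Without liver-null saline 4 the median interaction was -0.14, and without both arrays it was 0.0009, with 12 genes positive and 11 negative. All tested genes had a median of 0.09 without both arrays, with 5583 of 8469 positive, so the group still lay below all genes. That last setting was chosen after seeing the data, and both arrays were picked for a high acute phase mean.

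Hspa5, the main chaperone of the endoplasmic reticulum, measured 12.41, 12.23 and 12.08 with saline and 12.57, 12.41 and 12.34 with APAP in wildtype livers. In liver-null livers it measured 12.71, 12.18 and 12.06 with saline and 11.97, 12.41 and 12.30 with APAP, so all groups overlapped. Its interaction was -0.29 ± 0.25, and -0.09 without liver-null saline 4. The largest values were those of Derl3 (-0.83), which takes misfolded proteins out of the endoplasmic reticulum, Sdf2l1 (-0.76) and Creld2 (-0.61). Sdf2l1 and Creld2 also encode proteins of that compartment. Derl3, Sdf2l1 and Creld2 each lay between -0.14 and 0.04 without liver-null saline 4. Dnajb9 (-0.47 ± 0.23), a co-chaperone, kept -0.35 in its smallest value with an array left out, which was without liver-null APAP 2.

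The transcription factor ATF6 reads an element in the promoters of these chaperones, and that of Hspa5 is shown for its copy. The 250 bases before its RefSeq start (GRCm38.p6, chr2:34771840-34772089, plus strand) hold 1 full endoplasmic reticulum stress element, in capitals, which is CCAAT and CCACG parted by 9 bases.

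Hspa5: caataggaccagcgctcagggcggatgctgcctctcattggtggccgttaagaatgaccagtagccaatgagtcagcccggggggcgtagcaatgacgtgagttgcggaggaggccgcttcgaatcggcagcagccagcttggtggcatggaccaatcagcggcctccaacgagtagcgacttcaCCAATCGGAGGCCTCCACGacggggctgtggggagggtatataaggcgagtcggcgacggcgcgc

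The element was found, on both strands, in 0.113% of the 32851 windows and in 8 of the 20 tested unfolded protein response genes that had a window. It was added to the search after seeing the data. The median interaction was -0.23 in those 8 and -0.27 in the other 12, so the medians with and without the element were close. Of 27 tested NRF2 targets with a window, 5 held the antioxidant response element core TGACNNNGC (Gclm, Txnrd1, Gsta3, Ugdh and Abcc2), with a median interaction of 0.10, below the 0.28 of the other 22. Of the separated genes, 23 of 28 with the higher and 8 of 15 with the lower liver-null response had a window. The antioxidant response element core was in 6 of the 23 and 1 of the 8, beside 14% of the 6893 tested genes with a window and 10.2% of all 32851 windows. The heat shock core was in 2 and 2, beside 6.56% of those tested genes. The E-box CACGTG was in 2 and 0, beside 10.3% of tested genes and 6.02% of all windows, the cAMP response element TGACGTCA in 1 and 0, beside 2.74% and 1.55%, and the endoplasmic reticulum stress element in 0 and 0.

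The acute phase genes, secreted by hepatocytes under interleukin-6, held the largest negative values of all genes tested, those of Orm2, Lcn2 and Saa3. Of 30 tested genes 26 had a negative interaction, 0 passed, and the median was -0.30. The wildtype response had a median of 0.15 and the liver-null response one of -0.25. Their mean level was 1.01 on liver-null saline 4 and 0.70 on wildtype APAP 12, against -0.79 to 0.21 on the other 10 arrays. The median interaction was -0.17 without liver-null saline 4, -0.18 without wildtype APAP 12, and 0.02 without both, where 16 genes were positive and 14 negative. All tested genes had a median of 0.09 without both, with 5583 of 8469 positive, so the group still lay below all genes. Since these arrays were picked for their acute phase mean, the value of 0.02 is partly built in.

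Lcn2, which withholds iron from bacteria, had an interaction of -3.69 ± 2.66. It measured 3.88, 10.49 and 6.03 with saline and 11.79, 4.49 and 10.11 with APAP in wildtype livers, and 12.96, 9.54 and 9.46 with saline and 8.63, 9.52 and 8.74 with APAP in liver-null livers. The wildtype livers scattered widely within each treatment and overlapped between them, and 1 liver-null APAP array, at 9.52, lay within the liver-null saline range. The interaction was -2.19 without wildtype APAP 12 and -5.84 without wildtype APAP 13.

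Saa3 (-2.22), Saa2 (-1.63) and Saa1 (-1.17), the serum amyloid A genes, were likewise highest on liver-null saline 4, and Saa1 and Saa2 were second highest on wildtype APAP 12. Without that array Saa1 had -0.31 and Saa2 -0.38, and without liver-null saline 4 Saa3 had -1.27. Orm1, another orosomucoid, was the member besides Orm2 with an unadjusted p under 0.05 (0.0408), at -0.71 ± 0.31. The iron hormone Hamp, which interleukin-6 also raises, had 0.07 ± 0.22. Albumin (Alb), the hepatocyte product that marks the tissue, measured 13.66 to 13.85 on all 12 arrays, with an interaction of 0.07 ± 0.13.

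Cytokine, chemokine and NF-kB genes signal inflammation to the liver. Of 19 tested genes 16 were negative, 0 passed, and the median was -0.22. It was -0.12 without both of the arrays above, beside 0.09 over all genes. Cxcl1, a neutrophil attractant, had -1.96 ± 1.11. Its highest values were 9.40 on wildtype APAP 12 and 9.08 on liver-null saline 4, against 5.27 to 7.58 on the other 10, and its interaction was -0.37 without both. Il1b had -0.36 without wildtype APAP 14 and -0.56 ± 0.28 with all arrays (unadjusted p = 0.06944, and 0.003122 with the array set as covariate, with an adjusted p of 0.959 by limma).

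Of the markers of other cell types, those of neutrophils were highest on the same arrays. The mean of 5 tested neutrophil markers was highest on liver-null saline 4, at 0.83, and on wildtype APAP 12, at 0.36, against -0.25 to 0.03 on the other 10. The S100a8 and S100a9 markers had interactions of -1.04 and -1.05, and -0.27 and -0.26 without liver-null saline 4. Kupffer cell and myeloid markers were negative in 12 of 15, with a median of -0.14, and Marco had the lowest value at -2.03, which was -1.11 without liver-null saline 4. Their mean was highest on liver-null APAP 2 and liver-null saline 5, at 0.41 and 0.40. Their median interaction was 0.06 without liver-null saline 5, 0.06 without liver-null APAP 17, 0.01 without wildtype APAP 12 and -0.44 without liver-null APAP 2. Endothelial markers were positive in 14 of 15 (median 0.20) and stellate cell markers in 15 of 18 (median 0.23), with 0 passing in any of the 4 lists. The endothelial median ran from 0.08 to 0.38 and the stellate one from 0.15 to 0.28 when each array was left out. Within the arrays of the higher upper quartile these medians were 0.25 and 0.31, beside 0.04 over all genes. Within those of the lower one, with 1 mouse per group, they were 0.04 and 0.006, beside 0.02. Without wildtype APAP 12 and liver-null saline 4 they were 0.15 and 0.17, beside 0.09. In whole liver RNA fewer cells of a type and less RNA per cell cannot be told apart, and the part of these cells in the interaction was not tested.

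**Figure D4:**
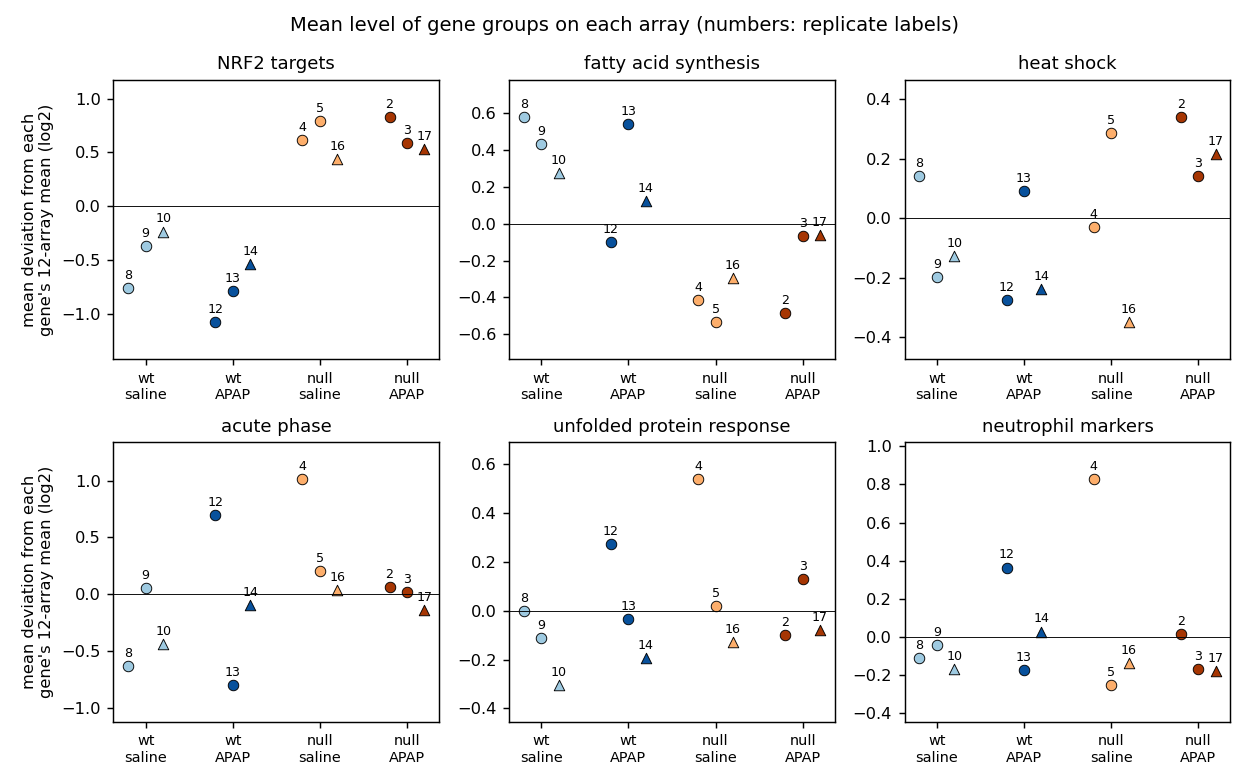
Mean deviation of each gene group on each array from the genes' 12-array means (log2), with the replicate label above each point; circles are arrays of the higher upper quartile and triangles arrays of the lower one. Liver-null saline 4 and wildtype APAP 12 are the highest arrays for acute phase, unfolded protein response and neutrophil genes, while NRF2 targets separate by genotype.

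Immediate early genes, which growth factor and stress kinases switch on within minutes, were split, with 11 of 24 positive, 0 passing and a median of -0.04 that ran from -0.09 to 0.05 when each array was left out. Fos measured 3.83, 2.61 and 2.84 with saline and 3.71, 4.98 and 3.88 with APAP in wildtype livers, and 2.59 to 2.88 in all liver-null livers. The liver-null values and the wildtype saline values of 2.61 and 2.84 lay below the array medians of 2.913 to 2.991, where changes are understated. The interaction of Fos was -1.09 ± 0.48 (SE; unadjusted p = 0.04348, adjusted p = 0.9994 by limma), and -0.70 without wildtype APAP 13. Klf10, a TGF-beta-induced repressor, had -1.61 ± 0.79, and -0.87 without liver-null saline 4. Dusp1, a phosphatase that ends MAP kinase signals, had -0.33 ± 0.63, and -0.83 to 0.04 when each array was left out. Atf3, the stress partner of these factors, lay below the level required for a test, at 1.85 to 2.43.

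The metallothioneins Mt1 and Mt2, which buffer zinc and copper, varied widely between mice of a group. Mt1 had an interaction of -1.48 ± 1.15 and Mt2 one of -0.06 ± 1.55, and Mt2 measured 10.65, 6.33 and 9.19 in the 3 wildtype APAP livers. Without the first of these, wildtype APAP 12, Mt1 had -0.68 and Mt2 0.90, and without wildtype APAP 13 they had -2.24 and -1.26. Integrated stress response genes had 8 of 26 positive and a median of -0.14, which was 0.12 without both arrays, beside 0.09 over all genes. Cth, the cystathionine lyase that makes cysteine for glutathione, was the member with an unadjusted p under 0.05 (0.03852), at 0.55 ± 0.24, and 0.27 without both arrays. Cdkn1a, a p53-induced brake on the cell cycle, had -0.04 ± 0.59, and -0.37 to 0.48 when each array was left out.

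Respiratory chain genes were nearly all positive and all small. Of 36 tested 34 were positive, from -0.11 for Uqcrc2 to 0.19 for Atp5j, with a median of 0.07 and 0 passing. After a further quantile normalization, which lowered the median of all genes to 0.01, their median was 0.05. Cholesterol synthesis turned its sign with single mice: the median was -0.11, it ran from -0.37 to 0.18 when each array was left out, and it was -0.34 within the 8 arrays of the higher upper quartile and 0.29 within the other 4.

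Ppp1r3c, which targets phosphatase 1 to glycogen, had the largest value of the glycogen genes, 1.11 ± 0.53, and 0.83 in a second probe set, and 0.73 without liver-null APAP 3. It measured 8.13, 8.19 and 8.23 with saline and 6.88, 7.91 and 8.06 with APAP in wildtype livers, and 8.69, 8.88 and 8.46 with saline and 9.33, 9.99 and 8.35 with APAP in liver-null livers. The wildtype treatments did not overlap, with every APAP value lower. Aldh1b1, a mitochondrial aldehyde dehydrogenase, had 1.24 ± 0.56 and 0.74 without wildtype saline 8.

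**Figure D5:**
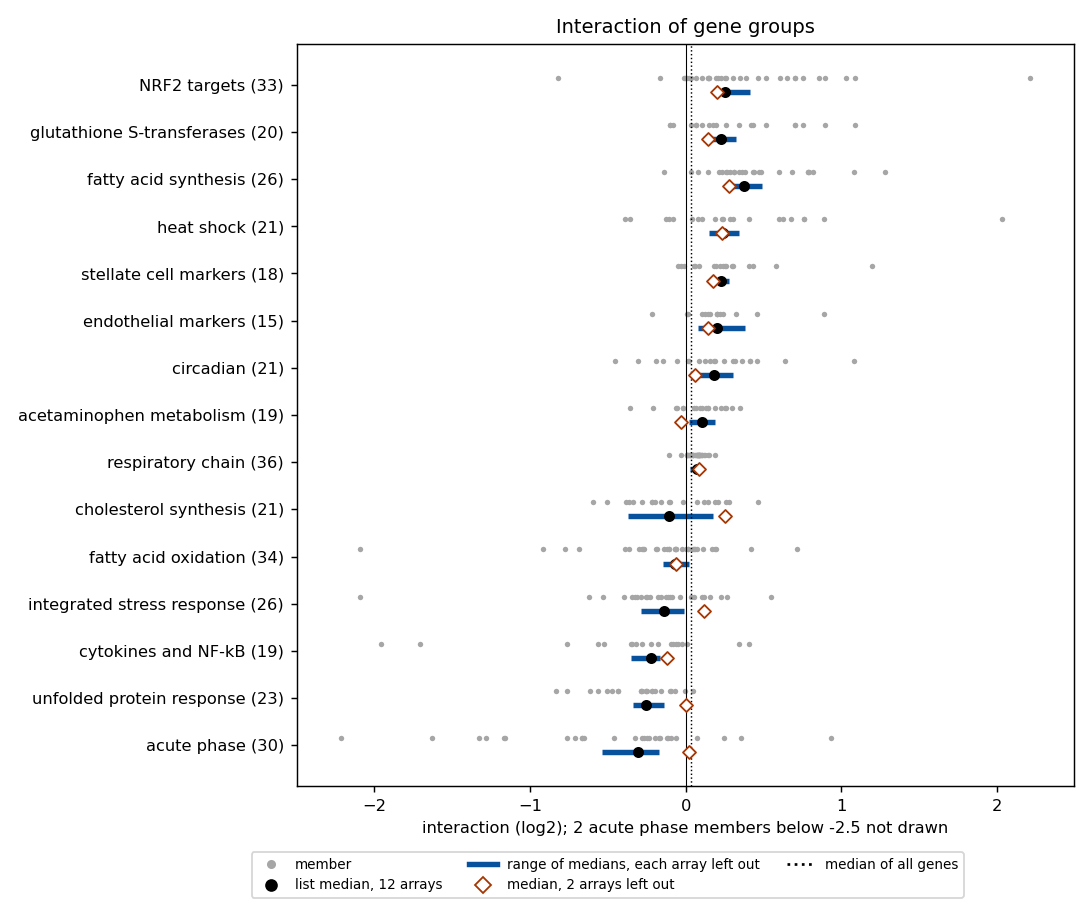
Interaction (log2) of 15 gene groups, with the number of tested members in parentheses: grey points are members, black points group medians over 12 arrays, blue bars the range of medians when each array is left out, and open diamonds the median without wildtype APAP 12 and liver-null saline 4. The medians of the unfolded protein response and acute phase groups move to 0.0009 and 0.02 without both arrays, while those of NRF2 targets and fatty acid synthesis are 0.20 and 0.28. The median of all genes is 0.09 without both arrays, and the dotted line marks their median over 12 arrays, 0.03. Orm2 and Lcn2 lie below the axis and are not drawn.

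None of the 39 gene lists had a member that passed. The direction of a gene's interaction was the same with every single array left out for 45.79% of the 8469 genes. Circadian clock and output genes were positive in 16 of 21, with a median of 0.18 that was 0.06 without both arrays, and Lpin1, a phosphatidate phosphatase under clock control, had the largest value at 1.08 ± 0.90, with 1.19 in a second probe set. It was 0.49 without wildtype APAP 12 and 1.87 without liver-null APAP 17. NRF2 targets were positive in 28 of 33 and fatty acid synthesis genes in 21 of 26 without both arrays, beside 5583 of all 8469 genes. The median of all genes was 0.09 in that setting.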

How the data were processed

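The authors deposited log2 expression values per probe set, made with RMA per the submitters' processing notes (background correction, normalization and summary of an Affymetrix array's probes). Its version, and whether it was run on the 12 arrays jointly, is not stated there. Each of 12393 genes was represented by its probe set with 1 symbol and the highest mean, and 8469 exceeded the array's 40th percentile on at least 3 of 12 arrays. A mean per group was fitted with limma 3.58.1 in R 4.3.3 (eBayes, 8 residual degrees of freedom), two-sided, called at a Benjamini-Hochberg adjusted p under 0.05, after the steps were tested on simulated data. RMA shrinks differences near background, so values near the array medians understate changes.

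Named genes were separated genes of smallest unadjusted p, filled to 12 per direction, list extremes and a set list; other members shown were chosen after their values were seen. The members and lists were chosen with earlier results of these data known. The array sets were cut at the largest gap in upper quartile. Replicates are separate mice per the labels. Alternatives were the covariate, each array out, the 8 arrays, filters, normalization, all probe sets, weights, trended variance and a floor. Leaving out wildtype APAP 12 with liver-null saline 4, and searching the endoplasmic reticulum stress element, were added after seeing the data. Promoters came from RefSeq, where 6893 tested genes had a window.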

Additional observations from a re-analysis of the deposited data

Results flagged for a closer look

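In 11 genes (0.13%) all 9 APAP minus saline differences ran one way in wildtype livers and the opposite way in liver-null livers. The liver-null response was the higher one in 8 of them and the lower one in 3, and 6 of the 11 are listed here. The interaction was 0.74 for Gstp3, 0.47 for Tmppe and 0.64 for Prodh, where the liver-null livers were higher after APAP. It was -0.47 for Arl1, -0.63 for Ssr2 and -0.34 for Cxcl12, where they were lower. The test of the difference itself did not pass in any of them (limma adjusted p = 0.9994).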

How the results depend on the processing

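The interaction called 0 genes in each of the 23 alternatives run, with 67 to 534 genes at an unadjusted p under 0.05 and a smallest adjusted p of 0.4247 to 1 by limma. With each array left out, 67 to 297 genes had an unadjusted p under 0.05. The wildtype response also called 0 in all 23, with 98 to 843 genes at an unadjusted p under 0.05. The liver-null response called 1 gene, Abhd1 (-2.49, limma adjusted p = 0.03015), in the 8 arrays of higher upper quartile, and 0 elsewhere. The averaged response called 0 to 1 with each array left out, the 1 being Jun. Leaving out both arrays of high acute phase mean was added after seeing the data. No paired analysis was possible because the groups share no replicate numbers. Arrays have no read depth, and probe sets near the array median limit what low genes can show.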
